A study of Mus musculus and Ictidomys tridecemlineatus with 36 samples.

Results

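Otx2 binding in the mouse retina at postnatal day 2 (P2) was described from the peak list that the study called on its mouse Otx2 CUT&RUN libraries against IgG. In CUT&RUN, an antibody directs a nuclease to a chromatin protein in isolated nuclei, and the released DNA is sequenced. Every peak of the list was a member, 29115 of the 532904 peaks in the 10 lists of the series. The list pooled 8 libraries, 4 made with an Otx2 antibody from R&D Systems and 4 with one from Atlas Antibodies, over 2 biological replicates with technical replicates, and 2 IgG libraries served as the control. Each reaction used 385000 nuclei from frozen whole retinas, and each mouse replicate was a pool of 3 individuals. The labels give neither strain nor genotype. P2 retina holds progenitors, photoreceptor precursors and other neurons together, so a peak cannot be assigned to a cell type. Both antibodies entered 1 call, so each peak has a single fold enrichment, a spread between replicates or antibodies cannot be given, and the read depth is unknown. Positions refer to GRCm38, and genes to GENCODE M21.

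Otx2 is a homeodomain TF of the Otd family. It is needed for photoreceptor fate and is also present in bipolar cells and pigment epithelium. Its relative Crx follows it in photoreceptor precursors, and both recognise the DNA word TAATCC, so a match does not tell which of them can bind. Otx2 acts at promoters, which lie at gene starts, and at enhancers, which may lie far away. Active promoters carry H3K4me3, enhancers carry H3K4me1, and active elements also carry H3K27ac.

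Windows of 300 bases, not all centred on the summit, show the sequences that the results below turn on. All are plus-strand reference sequence of GRCm38 without an annotated exon, and TAATCC or its reverse complement GGATTA is in capitals. The first 3 hold the distal summits with the highest fold enrichment. The first, chr3:15205762-15206061, is intergenic (fold 70.7), and the nearer of its 2 motif copies is centred 106.5 bp from the summit. The second, chr2:79399513-79399812, lies in an intron of *Cerkl* (fold 40.5), with a motif 157.5 bp from the summit. The third, chr12:89074689-89074988, lies in an intron of *Nrxn3* (fold 38.1), with a motif 185.5 bp away.
chr3 intergenic: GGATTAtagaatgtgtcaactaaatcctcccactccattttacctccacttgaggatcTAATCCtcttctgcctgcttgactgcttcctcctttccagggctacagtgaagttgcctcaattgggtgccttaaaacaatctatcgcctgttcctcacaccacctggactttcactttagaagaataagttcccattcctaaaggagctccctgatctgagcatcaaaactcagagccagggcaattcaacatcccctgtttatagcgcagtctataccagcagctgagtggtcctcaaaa
*Cerkl* intron: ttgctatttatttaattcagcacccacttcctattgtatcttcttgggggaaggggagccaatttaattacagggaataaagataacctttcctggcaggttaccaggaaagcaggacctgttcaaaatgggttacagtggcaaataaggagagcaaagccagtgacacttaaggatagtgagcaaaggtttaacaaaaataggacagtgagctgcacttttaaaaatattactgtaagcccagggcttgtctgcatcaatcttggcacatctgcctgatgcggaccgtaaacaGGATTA
*Nrxn3* intron: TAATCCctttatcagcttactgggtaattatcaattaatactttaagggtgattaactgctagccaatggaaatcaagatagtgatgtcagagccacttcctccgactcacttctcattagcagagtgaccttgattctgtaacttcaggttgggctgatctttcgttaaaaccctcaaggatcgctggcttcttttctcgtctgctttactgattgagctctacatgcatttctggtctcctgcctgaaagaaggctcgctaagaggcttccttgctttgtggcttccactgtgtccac

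The next 3 are the strongest distal summits with the motif nearest to 3 photoreceptor TF genes. They are chr14:48608818-48609117 near *Otx2* itself (fold 17.6, 53.0 kb from a start), chr10:44476676-44476975 in an intron of *Prdm1* (fold 18.0, 18.1 kb) and chr7:15864305-15864604 near *Crx* (fold 10.6, 6.95 kb, 2 copies of the motif).
*Otx2* distal: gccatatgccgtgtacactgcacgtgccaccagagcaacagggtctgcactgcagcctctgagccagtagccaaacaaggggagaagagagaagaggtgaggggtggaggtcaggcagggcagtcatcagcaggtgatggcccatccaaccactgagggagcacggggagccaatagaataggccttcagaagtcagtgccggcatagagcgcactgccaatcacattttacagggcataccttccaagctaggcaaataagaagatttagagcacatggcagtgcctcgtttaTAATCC
*Prdm1* distal: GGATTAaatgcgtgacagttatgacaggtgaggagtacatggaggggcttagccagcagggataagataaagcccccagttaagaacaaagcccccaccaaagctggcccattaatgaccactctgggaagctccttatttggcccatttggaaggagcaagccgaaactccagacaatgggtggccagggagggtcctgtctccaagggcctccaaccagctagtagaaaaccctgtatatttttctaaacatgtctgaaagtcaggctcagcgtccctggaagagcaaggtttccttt
*Crx* distal: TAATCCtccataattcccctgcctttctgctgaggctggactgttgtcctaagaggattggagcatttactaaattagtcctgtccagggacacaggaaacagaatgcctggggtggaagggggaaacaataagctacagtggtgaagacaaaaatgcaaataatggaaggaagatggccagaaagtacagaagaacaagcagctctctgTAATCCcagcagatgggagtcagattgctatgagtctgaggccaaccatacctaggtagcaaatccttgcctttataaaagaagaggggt

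The last 3 lie at gene starts. They are chr6:124840294-124840593 before *Gnb3* (fold 26.2, 2 copies), chr1:87803380-87803679 before *Sag* (fold 12.1, 1 copy in the window and another past its end) and chr11:69758686-69758985 before *Polr2a* (fold 7.31, no copy). *Gnb3* and *Sag* encode proteins of the phototransduction cascade, whereas *Polr2a*, the large subunit of RNA polymerase II, is used by every cell and is shown for contrast.
*Gnb3* start: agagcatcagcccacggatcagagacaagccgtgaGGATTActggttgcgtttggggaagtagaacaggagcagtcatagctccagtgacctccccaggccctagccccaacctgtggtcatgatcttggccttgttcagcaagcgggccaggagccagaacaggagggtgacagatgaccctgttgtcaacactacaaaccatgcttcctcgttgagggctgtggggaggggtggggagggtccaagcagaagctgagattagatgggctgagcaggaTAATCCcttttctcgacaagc
*Sag* start: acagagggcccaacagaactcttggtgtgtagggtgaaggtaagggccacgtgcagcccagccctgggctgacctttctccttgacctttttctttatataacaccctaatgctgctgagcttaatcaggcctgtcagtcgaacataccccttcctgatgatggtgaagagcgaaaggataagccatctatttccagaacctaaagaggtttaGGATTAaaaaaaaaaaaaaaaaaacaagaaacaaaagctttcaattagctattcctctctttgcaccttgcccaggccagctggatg
*Polr2a* start: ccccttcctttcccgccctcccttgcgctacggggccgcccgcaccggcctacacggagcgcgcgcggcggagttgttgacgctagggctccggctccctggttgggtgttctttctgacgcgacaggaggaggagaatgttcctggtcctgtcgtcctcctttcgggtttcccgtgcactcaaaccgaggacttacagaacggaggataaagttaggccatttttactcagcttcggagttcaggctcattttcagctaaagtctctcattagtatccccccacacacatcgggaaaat

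Most Otx2 peaks were of modest strength. The fold enrichment over IgG ran from 1.38 to 70.7 with a median of 3.54 and quartiles of 2.87 and 4.71. It was under 5 in 78.4% of peaks and at least 10 in 754 peaks (2.59%), of which 55 reached 20. The −log10 q-value ran from 1.3, the edge set by the peak caller, to 668. Peaks were 192 to 5739 bp wide (median 561 bp) and covered 19.8 Mb, 0.726% of the chromosomes. Stronger peaks were wider, with a median of 1163 bp at a fold of 10 or more and 550 bp below it. The summit lay at a median of 91 bp from the middle of the peak, and its position along the width had quartiles of 32.2% and 66.5%.

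Otx2 summits lay far more often at gene starts than the space there would give. Of the 29115 summits, 11866 (40.8%) were within 1 kb of the start of a protein-coding transcript, called promoter summits here, although such windows made up 3.59% of the genome. Introns held 30.0% of summits and 38.1% of bases, and intergenic sequence held 25.2% and 54.6%. Coding exons (0.91%), 3' UTRs (0.903%) and other exons (2.14%) held few, and only 14 summits fell in a 5' UTR beyond the promoter windows. The remaining 17249 summits, called distal, lay at a median of 21238 bp from the nearest start, and 3110 of them (18.0%) lay more than 100 kb away.

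The summits of Neurod1, a basic helix-loop-helix TF of photoreceptor precursors profiled at the same age, were placed differently. Of these, 24.5% were at promoters, 16.3 percentage points fewer than for Otx2 (Fisher's exact test, two-sided, adjusted p = 5.91e-106 over 7 classes). Introns held 42.2% of Neurod1 and 30.0% of Otx2 summits (Fisher's exact test, adjusted p = 2.04e-60), and intergenic sequence 28.5% and 25.2% (adjusted p = 5.21e-06). Coding exons also differed, with 1.31% against 0.91% (Fisher's exact test, adjusted p = 0.0224), whereas 5' UTRs, 3' UTRs and other exons did not pass the threshold (Fisher's exact test, adjusted p of 0.0593, 0.0593 and 0.957). These tests count peaks, not animals, and they compare 2 lists that differ in antibody, library number and length, with 29115 and 4744 peaks. The lists are also not independent, because 82.1% of Neurod1 peaks overlapped an Otx2 peak. Among peaks with a fold of at least 5 the promoter difference was 29.4 points in place of 16.3.

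**Figure D1:**
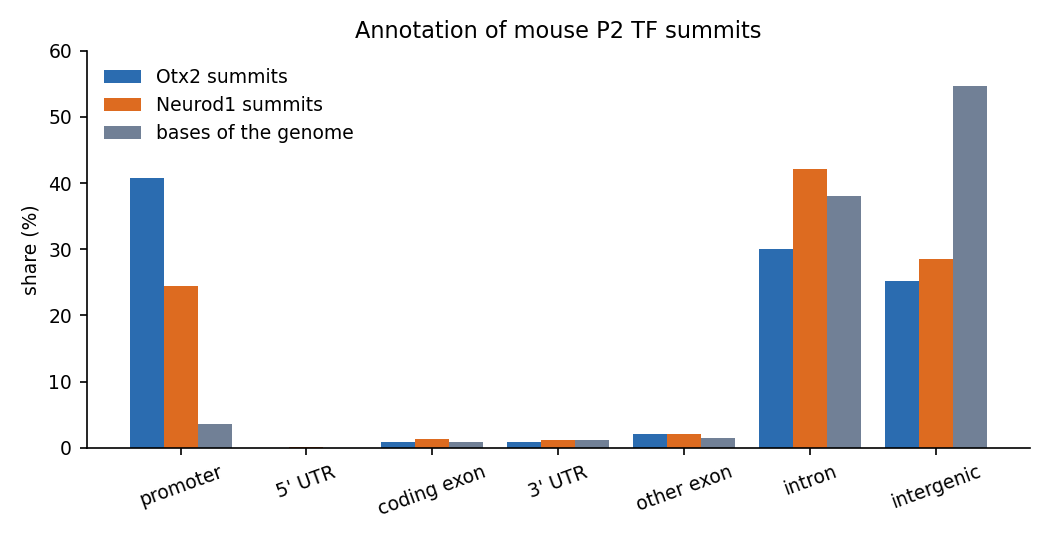
Share of Otx2 summits (blue), Neurod1 summits (orange) and bases of the genome (grey) in 7 annotation classes, in percent; each summit is counted once, in the first class from left to right that holds it. Promoters held 40.8% of Otx2 summits, 24.5% of Neurod1 summits and 3.59% of bases.

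Promoter summits were centred on the transcript start. Their median position was 5 bp upstream (quartiles 182 bp upstream and 104 bp downstream), and 64.2% lay within 200 bp. The 100 bp just downstream of the start held the most summits, 2739, followed by the interval from 200 to 100 bp upstream with 1771. Summits fell off on both sides, to 402 between 200 and 300 bp downstream and 487 between 400 and 300 bp upstream.

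**Figure D2:**
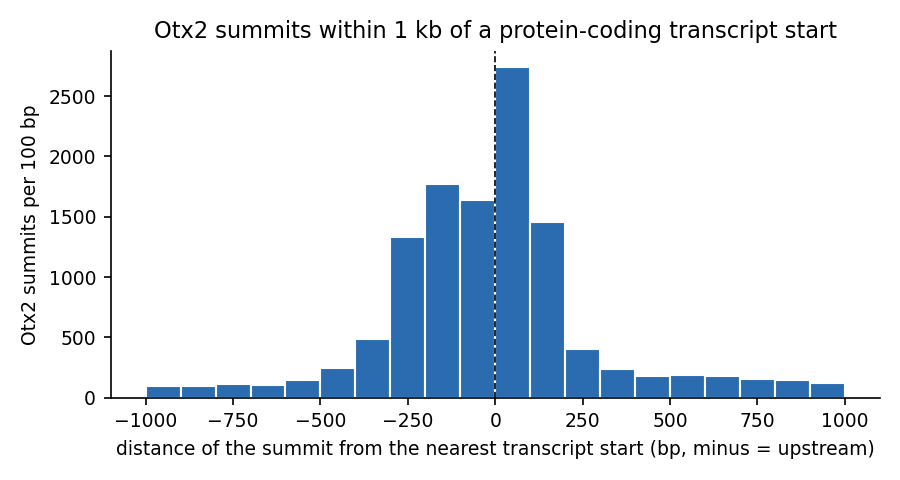
Number of Otx2 summits per 100 bp by signed distance from the nearest protein-coding transcript start (x axis in bp, minus is upstream), for the 11866 promoter summits. The bar just downstream of the start is the tallest, with 2739 summits.

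Promoter peaks were wider than distal peaks and differed little from them in fold. The median width was 745 bp at promoters and 480 bp at distal sites, and the median fold was 3.64 and 3.48. The median difference, 0.16, turned to -0.0212 once peaks under a −log10 q of 5 were left out. The highest folds were more frequent among distal peaks, where 2.92% reached 10, than among promoter peaks, where 2.12% did. Promoter sequence was richer in G and C, with a median of 61.7% in the 100 bp on either side of the summit against 49.8% at distal summits.

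Otx2 peaks at gene starts went with H3K4me3. A summit lay within 1 kb of a start in 11004 of 21938 protein-coding genes (50.2%). Of the 12289 genes with an H3K4me3 peak at a start, 85.3% had an Otx2 summit there, and of the 9649 genes without one, 5.36% had. The histone and TF lists were all called against the same 2 IgG libraries, so these shares describe position, and what the shared control adds to them was not tested. Of the promoter peaks, 88.7% overlapped an H3K4me3 peak, 67.7% an H3K4me1 peak and 29.4% an H3K27ac peak. Of the distal peaks, 12.1% overlapped H3K4me3, 86.6% H3K4me1 and 40.8% H3K27ac.

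Sorted by these marks, 12613 Otx2 peaks (43.3%) carried H3K4me3, 6569 (22.6%) carried H3K27ac without H3K4me3, the usual mark of active enhancers, and 7837 (26.9%) carried H3K4me1 alone. The remaining 2096 (7.2%) carried none of the 3. The median fold of the 4 sets was 3.72, 3.71, 3.38 and 3.1 in this order. A fold of at least 10 was reached by 4.7% of the peaks with H3K27ac but not H3K4me3, 2.27% of those with H3K4me3, 1.94% of those with H3K4me1 alone and 0.334% of those with no mark. Among the 503 distal peaks with a fold of at least 10, 97.6% overlapped H3K4me1 and 67.4% H3K27ac.

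The Otx2 motif was more frequent at distal than at promoter summits. TAATCC, read on both strands, was centred within 200 bp of 5889 of 17249 distal summits (34.1%) and of 1570 of 11866 promoter summits (13.2%), a difference of -20.9 percentage points (promoter minus distal, Fisher's exact test, two-sided, log10 p of -374). A window of the same length, 600 to 1000 bp from the summit in the direction of rising coordinates, held it at 15.2% of distal and 15.1% of promoter summits. The difference was -1.95 points within 50 bp, -7.66 within 100 bp and -13.3 anywhere in the peak. The share at promoter summits was below that of the neighbouring sequence, and the share at distal summits was 2.24 times that of theirs. A window of this length at the starts of all 21938 protein-coding genes held the word in 8.16%. The G and C content of both kinds of summit also differed, as given above, and its part in the difference was not tested. TAAGCC, a weaker relative of the word, was near 23.6% of distal summits against 14.1% in the shifted window.

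The share with the motif rose with peak strength. Among distal summits it was 22.1% at a fold under 2.5, 36.7% from 3.5 to 5, 53.8% from 7.5 to 10, 63.1% from 10 to 15 and 72.6% at 15 or more. The shifted window stayed between 14.2% and 16.2% over the same bins. Among promoter summits the share was 7.96% at a fold under 2.5 and 48.6% at 15 or more, where 37 promoter summits were left. Their shifted window was higher at the top as well, with 12.0% and 29.7% in these bins. The share at promoter summits passed that of the shifted window from a fold of 7.5 on, with 21.9% against 15.8%. Distal summits with a fold of 15 or more had 2 or more copies in 20.2%, against 3.2% at a fold under 2.5.

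**Figure D3:**
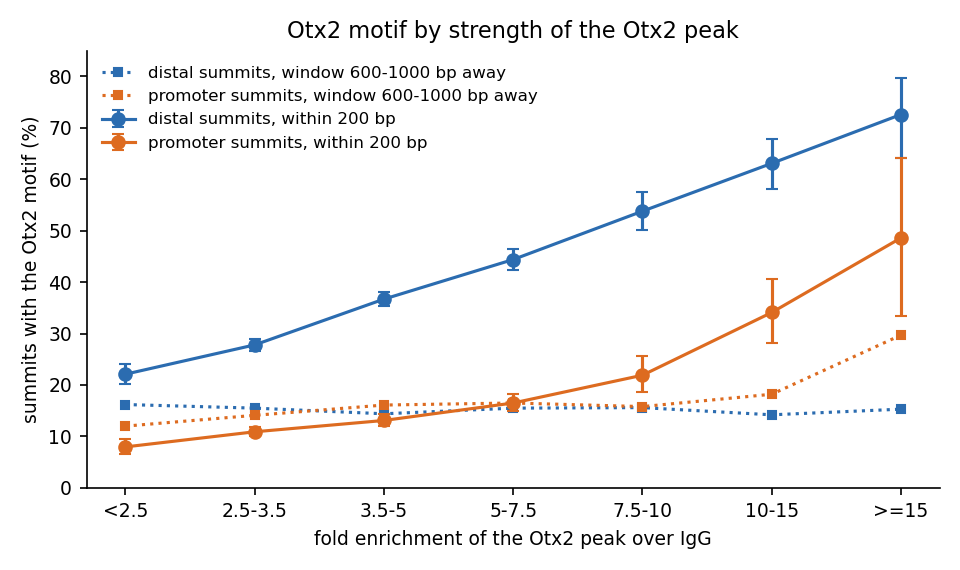
Percent of Otx2 summits with the motif by fold enrichment over IgG, for distal (blue) and promoter (orange) summits within 200 bp (solid, bars are 95% Wilson intervals) and in a window 600 to 1000 bp away (dotted). Distal summits run from 22.1% to 72.6% while their shifted window stays between 14.2% and 16.2%.

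The motif was seldom at the summit itself. At distal summits with a fold of at least 10, TAATCC occurred 0.119 times per kb within 25 bp of the summit, 4.33 times per kb at 125 to 150 bp, and 0.413 times per kb at 800 to 1000 bp. In the 329 of these 503 summits that had a copy within 200 bp, the nearest copy was at a median of 130 bp (quartiles 96.5 and 156 bp), and it was more than 100 bp away in 71.1%. The shape was alike at all distal summits, with 0.223 per kb within 25 bp and 1.64 per kb at 125 to 150 bp. At promoter summits the density was 0.0758 per kb within 25 bp and reached 0.521 per kb at 150 to 175 bp. The printed windows at *Cerkl*, *Nrxn3* and *Prdm1* show this offset, with the motif at the edge of the window and none at the summit.

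**Figure D4:**
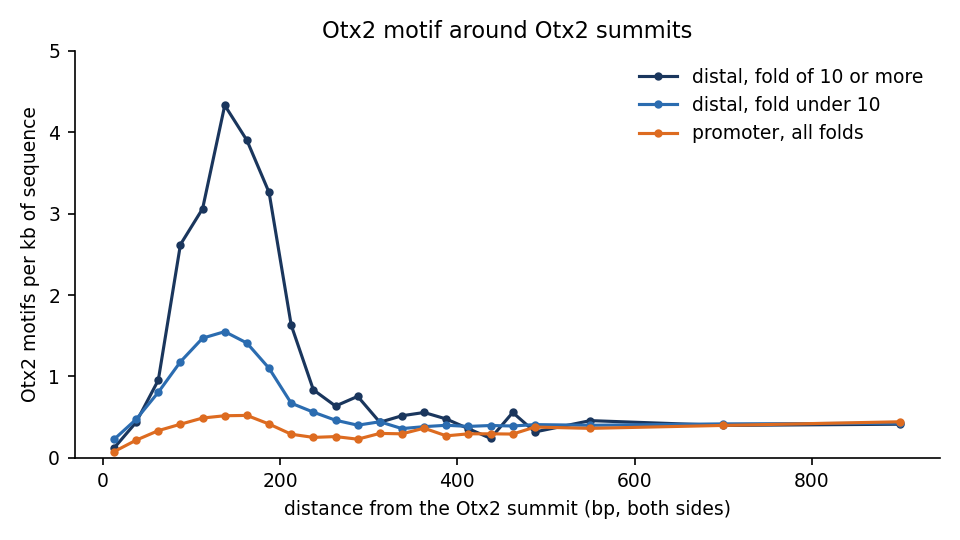
Copies of the Otx2 motif per kb of sequence against distance from the Otx2 summit (both sides, bp), for distal summits with a fold of at least 10 (dark blue), distal summits with a fold under 10 (blue) and promoter summits (orange). The dark blue line is at 0.119 beside the summit, at 4.33 between 125 and 150 bp, and near 0.4 far from it.

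A scan of all 2080 words of 6 letters, with a word and its reverse complement counted as 1, ranked TAATCC first in distal summits with a fold of at least 10. It was found at 64.8% of them and in 14.3% of the shifted windows. The overlapping word CTAATC came second, with 43.1% and 9.15%, and TAAGCC seventh, with 33.4% and 13.1%. CAGATG, an E-box word of the kind that Neurod1 and its relatives bind, was 54th, with 46.3% and 26.8%. In all distal summits CTAATC led, with 23.6% and 9.68%, and TAATCC was at rank 3, with 33.9% and 15.1%. In promoter summits with a fold of at least 10, TAATCC was at rank 190, with 36.3% and 19.9%. In all promoter summits it was at rank 1067, with 13.1% and 14.9%, and TGCGCA led, with 14.4% and 3.86%. The ranking is a description of these windows, and a word in a window is not a bound site.

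The 25 peaks with the highest fold lay near genes of several kinds. Of these, 18 were distal and 7 were at promoters, and 6 lay more than 100 kb from the nearest protein-coding start. All 25 overlapped H3K4me1, 20 overlapped H3K27ac and 9 overlapped H3K4me3, and 17 had TAATCC within 200 bp of the summit. Over all Otx2 peaks these shares were 78.9%, 36.2%, 43.3% and 25.6%. The strongest, at chr3:15205135-15207047 (fold 70.7), was intergenic and 126 kb from the start of *Gm9733*. Its fold was far above the second, 40.5, in an intron of *Cerkl* 6.62 kb from a start. *Cerkl* encodes a ceramide kinase-like protein whose loss causes retinal dystrophy. It was followed by peaks in introns of *Nrxn3* (38.1), a presynaptic adhesion protein, *Wwc1* (37.3) and *Sorcs3* (37.2), a sorting receptor of neurons.

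*Gnb3*, the β subunit of cone transducin, which ON bipolar cells also use, had a peak of fold 26.2 at 169 bp before its start, with 2 motif copies. *Ano2*, a chloride channel of the photoreceptor terminal, had one of 28.6 at 67 bp past its start. *Elovl4*, an elongase for the very long fatty acids of the outer segment, had one of 25.2 in an intron 20.7 kb from a start. *Pomt2*, an enzyme that glycosylates dystroglycan, had one of 28.7 in an intron. Other strong promoter peaks were at *Tpd52* (32.9), *Mindy4* (31.7), *Ccdc115* (30.9), *Egf* (24.4) and *Cdk19* (24.1), and the last pair had no TAATCC within 200 bp. The rest were nearest to *Ankef1*, *Zranb1* (in an intron of *Fgfr2*), *Tmem201*, *D430042O09Rik*, *Rnpc3*, *Apob* (at 410 kb), *Ankrd55*, *Malt1*, *L1td1*, *Fars2* and *Cd180*, with folds from 24.2 to 34.6. The nearest gene is a name for the place and need not be the target.

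Neurod1 peaks overlapped 3823 Otx2 peaks (13.1%), 1070 at promoters (9.02% of them) and 2753 distal (16.0%), a difference of -6.94 points (promoter minus distal, Fisher's exact test, two-sided, p = 3.95e-69). The difference was -10.5 points at a −log10 q of at least 5 and -18.7 points among the Otx2 peaks of highest fold, as many as the Neurod1 list held. Seen from the other list, 82.1% of Neurod1 peaks overlapped an Otx2 peak. Fewer Neurod1 than Otx2 summits were at promoters, as given above, so the difference in overlap is not a separate result. Both lists were called against the same 2 IgG libraries, so the overlap is given as position only. The share with a Neurod1 peak was 4.42% of Otx2 peaks with a fold under 2.5 and 68.9% of those with 15 or more. The median width of these Otx2 peaks was 359 and 1297 bp, and the part of width in the rise was not tested. The Otx2 summit itself was inside a Neurod1 peak in 3.17% and 68.3%. Of the 25 strongest Otx2 peaks, 21 overlapped a Neurod1 peak. Side by side, the Otx2 and Neurod1 folds were 70.7 and 4.95 at the *Gm9733* site, 40.5 and 27.4 at *Cerkl*, 38.1 and 20.2 at *Nrxn3*, 37.2 and 41.6 at *Sorcs3*, and 26.2 and 17.6 at *Gnb3*. The order of the folds thus differed between the lists. *Ccdc115*, with an Otx2 fold of 30.9 and the highest −log10 q of the list, had no Neurod1 peak.

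TF genes of photoreceptors often had Otx2 peaks at and around them, but so did the progenitor genes described below. Of the 16 genes of this list, 13 (81.2%) had a summit within 1 kb of a start, against 50.2% of all protein-coding genes. An H3K4me3 peak lay at a start of 15 of the 16. Of all genes with such a peak, 85.3% had a start summit, so the share in this list was not above theirs. The nearest protein-coding start of a summit 1 to 100 kb away was that of 15 of the 16, against 30.0% of all, and a summit with a fold of at least 10 was nearest to 6 of the 16, against 2.71% of all. The 6 were *Otx2* (highest fold 18.9), *Prdm1* (18.0), *Casz1* (15.9), *Mef2c* (13.8), *Thrb* (11.9) and *Crx* (10.6). These shares were not adjusted for gene length or for the space between genes. Of the 20 progenitor genes, 18 had a start summit and 19 a distal one. Their median was 7.0 summits per gene, against 3.5 for the photoreceptor TFs. None of the 20 was nearest to a summit of fold 10 or more, which for so short a list is near the 2.71% of all genes.

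*Otx2* itself had 19 summits, of which 4 were at its promoters. The promoter summits were weak, with folds of 2.22, 2.32, 3.55 and 4.15. The strongest lay far on either side, with folds of 18.9 at 67.4 kb upstream, 17.6 at 53.0 kb downstream and 14.7 at 68.2 kb downstream. At these 3 the Neurod1 fold was 6.25, 16.9 and 12.7. Of the 19 peaks, 18 overlapped H3K4me1, against 78.9% of all Otx2 peaks. *Prdm1*, a repressor that favours photoreceptor over bipolar fate, had 11 summits, with folds of 18.0 and 15.4 in introns 18.1 and 15.5 kb from a start and of 2.8, 3.75 and 5.09 at its 3 promoter summits. *Crx* had no summit within 1 kb of a start and 3 nearby, with folds of 10.6, 2.87 and 2.23 at 6.95, 11.2 and 9.59 kb. *Nrl*, the rod-determining TF, had 4 summits with folds from 3.1 to 6.59, and *Nr2e3*, which acts below it, had none at its start and 5.97 at 1203 bp. *Neurod1* had a summit of fold 9.79 within 1 kb of a start, although the start nearest to that summit was another gene's.

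Genes of the phototransduction machinery differed in their Otx2 peaks. Of 26 rod and outer segment genes, 18 had a summit at a start (69.2%, against 50.2% of all genes), and 16 had a distal one (61.5%, against 30.0%). The highest start folds were those of *Sag* (12.1), which encodes rod arrestin, *Cnga1* (12.0), a subunit of the rod channel, *Prph2* (8.37) and *Rom1* (8.2), the tetraspanins of the disc rim. *Abca4* (6.03), *Grk1* (4.8), *Gnat1* (4.73), *Aipl1* (3.08) and *Guca1a* (3.04) had Otx2 summits at starts without an H3K4me3 peak. *Rcvrn* and *Guca1b* had no summit within 100 kb for which they were the nearest gene. Of the 10 cone genes, 5 had a start summit (a share close to the 50.2% of all genes), *Gnb3* (26.2), *Gnat2* (9.74), *Cngb3* (7.37), *Cnga3* (5.6) and *Gngt2* (5.3). The cone opsins *Opn1sw* and *Opn1mw*, *Pde6h* and *Arr3* had none near.

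The other cell types of the retina gave varied counts, to be read against 50.2% of all genes with a start summit, 30.0% with a distal one and 2.71% with one of fold 10 or more. Of 19 bipolar cell genes, 7 had a start summit (36.8%) and 11 a distal one (57.9%), led by *Prdm8* (11.9) and *Irx6* (11.5). Of 20 progenitor genes, 18 had a start summit (90.0%) and 19 a distal one. No summit of fold 10 or more was nearest to any of them, a count that is near the background for a list of this length. *Notch1* (9.4), *Nfib* (9.22) and *Sox2* (9.2) came closest. Of 10 Müller glia genes, 9 had a start summit (90.0%) and 7 a distal one (70.0%). Of 20 ganglion, amacrine and horizontal cell genes, 6 had a start summit (30.0%, below all genes) and 15 a distal one (75.0%, above all genes), with *Ptf1a* at 16.8 and *Slc6a9* at 10.6. Of 14 pigment epithelium genes, 6 had a start summit (42.9%, below all genes) and 5 a distal one (35.7%). *Dct*, an enzyme of pigment synthesis, reached 11.6, with 1 motif copy and no H3K4me3, whereas *Rpe65*, *Tyr*, *Lrat*, *Rgr* and *Mlana* had none.

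Ubiquitously expressed genes had start summits as often as the progenitor genes. The count was 18 of 20 (90.0%), with folds from 2.22 at *B2m* to 12.2 at *Eef1a1*, and all 20 had H3K4me3. *Polr2a* (7.31), *Gapdh* (3.7) and *Actb* (3.02) were among them. Of 20 genes of other tissues, *Ckm* had the sole start summit (2.77), *Gcg* and *Myod1* had a distal one each, and the other 17 had none. Summits of fold 10 or more were nearest to 37.5% of the photoreceptor TFs and to 10.5% or less of the genes in each of the other lists, which were not tested against each other.

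**Figure D5:**
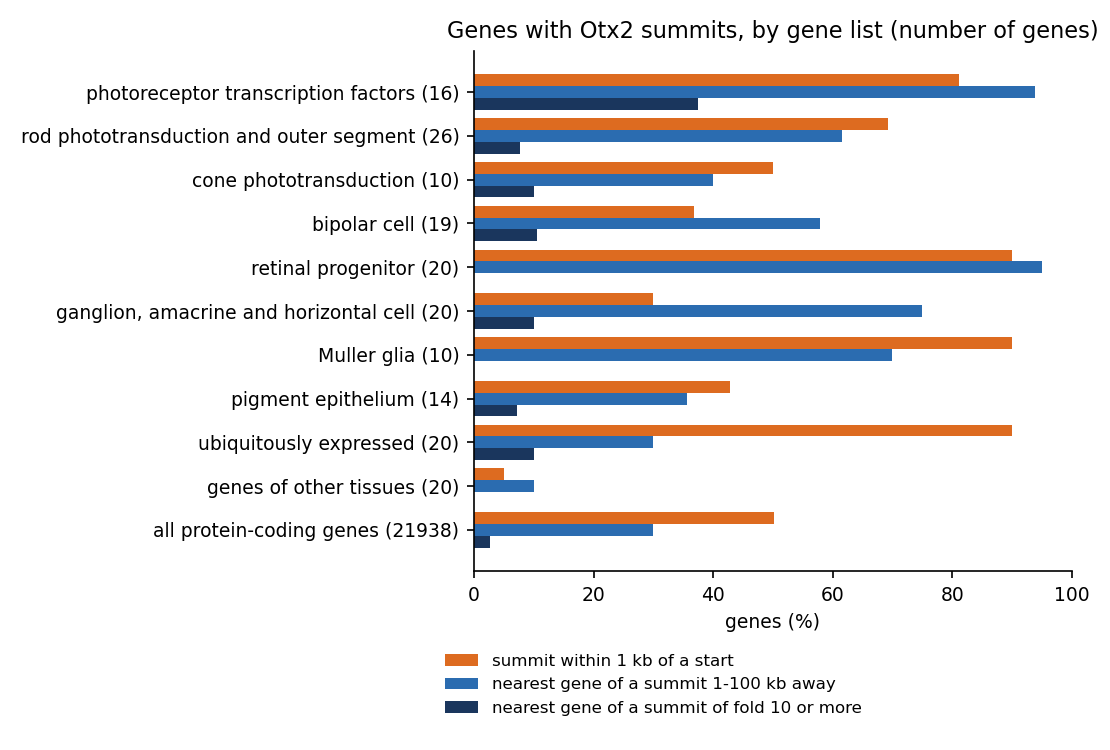
Percent of genes with an Otx2 summit within 1 kb of a start (orange), with a summit 1 to 100 kb away for which they are the nearest gene (blue), and with such a summit within 100 kb of fold 10 or more (dark blue), by gene list with the number of genes; the bottom row is all 21938 protein-coding genes. Photoreceptor TFs reach 81.2%, 93.8% and 37.5%, ubiquitously expressed genes 90.0%, 30.0% and 10.0%, and genes of other tissues 5.0%, 10.0% and 0.

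The number of Otx2 summits nearest to a gene within 100 kb was not adjusted for gene length or for the space around it. *Gse1* had the most, 49, of which 45 were distal (59.2% of all Otx2 peaks were) and 35 overlapped Neurod1 (13.1% of all did). *Casz1*, a zinc finger TF that acts in progenitors and rods, had 32, and *Mef2c*, a MADS-box TF, 24. Others among the 15 genes with the most were *Pmepa1* (23), *Pax6* (21), *Zmiz1* (21), *Cxxc5* (20), *Msi2* (20), *Bcor* (19), *Celf4* (19), *Otx2* (19), *Sox2* (19), *Dscaml1* (18) and *Ppm1h* (18). Their median folds were modest, from 2.66 at *Pmepa1* to 3.89 at *Dscaml1*. At some of these genes the start of another annotated gene was nearer to most summits than the gene's own, with 17 of 19 at *Sox2*, 15 of 21 at *Zmiz1* and 14 of 19 at *Otx2*.

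This was also so at *Mef2c*, where 21 of the 24 summits were closer to the start of another gene. For 18 of them it was *C130071C03Rik*, a noncoding gene that spans the microRNA gene *Mir9-2* (13, 83738814 to 83738885), and 1 summit lay 182 bp from the start of that gene. Of these 21 summits, 19 overlapped an H3K4me3 peak, with a fold of up to 101, 20 overlapped H3K27ac and none overlapped Neurod1. Over all Otx2 peaks these shares were 43.3%, 36.2% and 13.1%. The H3K4me3 fold of 101 recurred at most of the 21, and H3K27ac folds recurred too. Neighbouring summits thus lay in shared histone peaks, and the counts are not of separate histone peaks. The Otx2 folds of the 21 summits ran from 2.07 to 13.8. These summits lay 61.3 to 96.9 kb past a *Mef2c* transcript start that is inside the gene. The other 3 summits lay inside *Mef2c*. Their folds were 4.36 at 4.54 kb before a transcript start, 2.63 at 391 bp past one and 3.1 at 4.24 kb past one.

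*Thrb* and *Rxrg*, nuclear receptor genes of cone differentiation, had fewer summits. *Thrb* had 7 nearest to it within 100 kb, with a fold of 7.29 at 153 bp past a start, 11.9 in an intron 8.86 kb from a start, where a Neurod1 peak (7.03) also lay, and 2.88 to 3.81 at the other 5. All 7 overlapped H3K4me1 and 2 overlapped H3K27ac, against 78.9% and 36.2% of all Otx2 peaks. *Rxrg* had 2, of fold 4.41 at 22 bp before its start, with 1 motif copy and H3K4me3 (3.98), and of fold 2.41 in an intron at 1.13 kb. Neither *Rxrg* summit overlapped Neurod1, as was so for most Otx2 peaks, of which 13.1% did.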

How the data were processed

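CUT&RUN was performed on P2 mouse retinal nuclei, 8 libraries for Otx2 and 2 for IgG. The authors trimmed reads (cutadapt 3.5, Trim Galore 0.6.4, per the labels and methods), aligned them to GRCm38 with Bowtie2, filtered them with SAMtools 1.12, removed duplicates with UMI-tools, and merged technical repeats. MACS2 then called 1 peak list per target from both replicates together, with IgG as control. Peaks on the mitochondrial genome and in ENCODE blacklisted regions were left out. The deposited fold enrichment is a ratio to IgG, and the deposited −log10 q-values come from MACS2. Neither was rescaled. Read depth is unknown here, and the peak lists used hold no value per library.

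Peaks were compared in Python 3.11.15 with pandas 2.3.3, numpy 2.4.6 and scipy 1.17.1, and plotted with matplotlib 3.10.9. Sequence was read with pysam 0.24.0 from the RefSeq GRCm38 assembly, and genes came from GENCODE M21. Overlap meant at least 1 bp, and the overlap code was checked against bedtools on simulated intervals. Distances are from the summit to the nearest protein-coding transcript start, limited to 100 kb for gene counts. A summit was assigned to the first class that held it, in the order promoter, 5' UTR, coding exon, 3' UTR, other exon, intron and intergenic. Peaks were the units of all Fisher's exact tests, which were two-sided. Ratios in the scan of words had 20 added to both counts for ranking.

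Members and gene lists (10 lists, 175 genes, all found) were chosen with earlier results of these data known. Genes were named if nearest to the 25 strongest peaks, among the 15 with most summits, in a gene list, or *Thrb*, *Rxrg* or *Mef2c*. *Mir9-2*, *C130071C03Rik*, *Fgfr2* and the leading words of the scan were named after the values were seen. Some genes that this rule selects are not reported here. Alternatives were other promoter windows, all annotated starts, peak middles, stricter q or fold, other overlaps and other motif windows.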

Additional observations from a re-analysis of the deposited data

How the results depend on the processing

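The differences in the promoter share against Neurod1, in the Neurod1 overlap and in the motif kept their direction and their side of the 0.05 threshold in all 19 alternatives, 2 of which (Neurod1 at the summit, and motif windows on the peak's middle) were chosen after seeing the data; the largest p was 3.19e-26 (Fisher's exact test). The other annotation classes were not recomputed under alternatives. The share of Otx2 summits at promoters, 40.8%, was 36.1% with a 500 bp window, 45.3% with 2 kb, 44.6% with the starts of all annotated genes, 45.1% at a −log10 q of at least 5 and 44.5% at a fold of at least 5. The share of genes with a start summit, 50.2%, was 47.3%, 51.9%, 41.0% and 51.0% with 500 bp, 2 kb, a −log10 q of at least 5 and any overlap of the peak. The median fold of promoter peaks minus that of distal peaks, 0.16, was 0.29 with 500 bp and 0.0937 with 2 kb, and turned to -0.0212 at a −log10 q of at least 5; the cause was not tested. Ranked by q, 14 of the genes nearest to the 25 strongest peaks stayed among them. Of the 15 genes with the most summits, 9 stayed within 50 kb and 9 at any distance. No paired analysis was possible because the lists hold 1 pooled value per peak and no value per library, so no replicate could be left out either. Unknown depth limits all folds.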

Other observations

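Otx2 peaks were unevenly spread over the chromosomes. Autosomes held 9.2 to 17.9 peaks per Mb, with the most on chromosome 11, whereas the X chromosome held 3.28 per Mb (561 peaks) and the Y chromosome 4 peaks in all. The X was low per gene too, with 0.592 peaks per protein-coding gene against 0.928 to 1.95 on the autosomes, and 57.0% of its summits were at promoters against 33.3% to 46.6%. Distal peaks were at 1.41 per Mb on the X and 5.55 to 10.0 per Mb on the autosomes. The median fold of X peaks, 4.08, was above the 3.4 to 3.66 of the autosomes. The sex of the animals and the share of uniquely mapped sequence per chromosome are not given in the sources used here, and their part was not tested.

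CAGATG was also offset from strong distal Otx2 summits. It occurred 0.875 times per kb within 25 bp and 2.27 times per kb at 125 to 150 bp. At promoter summits it was rarer than in the shifted window, at 16.9% against 22.9%.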
